A study of Mus musculus with 6 samples.

Results

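Keratins and claudins are the structural genes by which an epithelium is recognised, and 8 of them were followed here through mouse implantation: the keratins Krt7, Krt8, Krt18 and Krt19 and the claudins Cldn3, Cldn4, Cldn6 and Cldn7. They were taken by gene symbol, and all 8 were found among the 32285 genes of each matrix. RNA of single embryo cells had been counted by a droplet method that tags the 3′ end of each transcript (10x Chromium), in 6 libraries that run from embryonic day 3.5 (E3.5) over E4.5 and E4.75 to E5.0, then to E5.25 and to E5.5. All embryos had a B6SJLF1/J mother and a B6CBAF1/J father. At E3.5 and E4.5 they were flushed from 4-week-old females superovulated with PMSG and hCG, whereas at E4.75 to E5.5 they were dissected out of the uterus of 7-week-old females for which no hormone treatment is described. The flushed embryos and those of E5.5 gave cells that were filtered at 20 µm, while those of the other 3 stages were not filtered. Each stage is 1 library of cells from pooled embryos, so no difference between stages or cell classes has a replicate check, and no p-value is given.

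Keratins form intermediate filaments only as pairs of a type II with a type I chain. Krt7 and Krt8 are type II chains, Krt18 and Krt19 are type I chains, and Krt8 with Krt18 is the pair of simple epithelia and the earliest keratin pair of the mouse embryo. Claudins are membrane proteins with 4 transmembrane segments that set the permeability of tight junctions. Cldn4, Cldn6 and Cldn7 are known from the trophectoderm, where they seal the blastocyst, and Cldn3 and Cldn4 are known as receptors of a clostridial enterotoxin. The lineages that share these genes are the trophoblast, which forms the placenta, the primitive endoderm with its visceral and parietal derivatives, and the epiblast, which forms the embryo proper.

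After filtering, 20820 cells remained of 42328 barcodes: 88, 962, 2497, 5262, 3908 and 8103 cells in order of stage, with medians of 18096, 10485, 31093, 17310, 19750 and 5104 UMIs (unique molecular identifiers, each 1 captured transcript) per cell. The E5.5 library stood apart, since 68.1% of its 27302 barcodes had under 1500 genes and 1661 of its 8103 cells fell into clusters that carried markers of several lineages, against 0 to 120 such cells in each other library. The mixed cells were kept out of the classes. Between 0 and 11 barcodes were shared by any 2 libraries. Clusters were built without the 8 genes and named from marker lists. Each named cluster had 5 or more of its class's markers at 2-fold or more over the mean of all clusters, and its median marker of another embryonic lineage was at most 0.11 of the level in that lineage's own clusters, which describes the naming and is no separate check of it. There were 44, 299, 851, 1916, 1253 and 2375 epiblast cells and 42, 238, 459, 828, 912 and 2196 trophoblast cells by stage, and 851, 1844, 1204 and 1249 endoderm cells from E4.75. Giant cells were a class of their own, with 151, 209 and 337 cells at E5.0, E5.25 and E5.5. The trophoblast class and its levels leave them out. At E3.5, 2 cells scored as endoderm, too few for a value. The 44 epiblast cells of that stage are so called from marker score only, and all are in cluster 1. Whether they had already parted from the endoderm was not tested. At E4.5 the cells with the highest endoderm marker score were 421, of which 418 were in cluster 2. The 10 leading genes of that cluster included 3 parietal and 2 endoderm markers, so it is given no cell type name and is called cluster 2 below, and each comparison of E4.5 with later endoderm is one between cluster 2 and clusters 4, 22, 23 and 24. Giant cells, ectoplacental cone and parietal endoderm had at least 151 cells in each library in which they are described.

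In the mouse genome (GRCm38), 4 of the 8 genes form 2 pairs of neighbours. Krt8 (ENSMUSG00000049382, chromosome 15, 101996698-102004482, minus strand) and Krt18 (ENSMUSG00000023043, chromosome 15, 102028180-102032027, plus strand) are neighbours 23.7 kb apart with 0 annotated genes between them, although one is type II and the other type I. Krt7 (ENSMUSG00000023039, chromosome 15, 101411043-101430313) lies 566.4 kb from Krt8, with 42 annotated genes between them. Krt19 (ENSMUSG00000020911) is on chromosome 11 at 100140810-100148665. Cldn4 (ENSMUSG00000047501, chromosome 5, 134945119-134946934, minus strand) and Cldn3 (ENSMUSG00000070473, chromosome 5, 134986214-134987472, plus strand) are 39.3 kb apart, again with 0 genes between them. Cldn7 (ENSMUSG00000018569) is on chromosome 11 at 69964779-69967885 and Cldn6 (ENSMUSG00000023906) on chromosome 17 at 23679249-23682446. Krt7, Krt8 and Cldn3 each overlap a noncoding gene of the opposite strand that is also in the matrices (Gm671, Gm36026 and Wbscr25). No source used here says whether counting used the strand, and how reads of those overlaps were assigned was not checked. RefSeq also lists a Krt8 pseudogene, Krt8-ps, with which Krt8 reads could be shared.

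The promoters of the 2 neighbouring pairs and of Cldn6 are shown because these 5 genes are the ones whose levels are singled out below: Krt8 and Krt18 parted in parietal endoderm, Cldn3 and Cldn4 ran in opposite directions in trophoblast without giant cells up to E5.25, and Cldn6 followed a course of its own. Each window runs from 250 bases before to 50 bases after the start given by RefSeq (GRCm38.p6), 5′ to 3′ on the gene's strand, and capitals mark the motifs searched for.
Krt8: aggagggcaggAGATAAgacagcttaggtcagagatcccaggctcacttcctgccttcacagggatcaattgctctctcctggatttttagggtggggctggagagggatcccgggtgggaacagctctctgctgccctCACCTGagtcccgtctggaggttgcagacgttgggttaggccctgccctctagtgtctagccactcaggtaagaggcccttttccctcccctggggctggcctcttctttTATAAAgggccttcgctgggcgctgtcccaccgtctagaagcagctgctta
Krt18: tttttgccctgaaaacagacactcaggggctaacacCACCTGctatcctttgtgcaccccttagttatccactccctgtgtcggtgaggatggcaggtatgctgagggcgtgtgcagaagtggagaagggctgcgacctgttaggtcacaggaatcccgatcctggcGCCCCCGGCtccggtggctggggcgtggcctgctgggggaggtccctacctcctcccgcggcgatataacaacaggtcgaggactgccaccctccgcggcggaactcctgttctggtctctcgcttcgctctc
Cldn3: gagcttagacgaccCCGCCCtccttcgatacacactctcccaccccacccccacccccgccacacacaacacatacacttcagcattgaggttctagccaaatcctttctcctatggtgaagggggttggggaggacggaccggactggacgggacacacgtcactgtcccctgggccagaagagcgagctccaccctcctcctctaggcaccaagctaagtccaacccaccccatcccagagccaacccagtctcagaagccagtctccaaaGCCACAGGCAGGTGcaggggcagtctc
Cldn4: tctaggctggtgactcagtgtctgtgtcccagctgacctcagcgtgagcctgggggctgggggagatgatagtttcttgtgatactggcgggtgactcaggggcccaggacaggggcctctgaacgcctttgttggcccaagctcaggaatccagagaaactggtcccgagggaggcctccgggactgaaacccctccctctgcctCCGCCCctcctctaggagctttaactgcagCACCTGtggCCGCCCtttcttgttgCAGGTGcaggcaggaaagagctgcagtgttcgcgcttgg
Cldn6: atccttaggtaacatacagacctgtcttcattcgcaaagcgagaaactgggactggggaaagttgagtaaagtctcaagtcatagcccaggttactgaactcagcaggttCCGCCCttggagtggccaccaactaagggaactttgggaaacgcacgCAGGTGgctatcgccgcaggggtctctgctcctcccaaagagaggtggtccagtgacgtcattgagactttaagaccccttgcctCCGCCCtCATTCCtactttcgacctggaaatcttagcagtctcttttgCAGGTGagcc
The motifs were TATAAA on the gene's strand, and on both strands the TFAP2 motif GCCNNNGGC, the TEAD motif GGAATG, the GATA motif AGATAA, the GC box GGGCGG and the E-box CAGGTG. The Krt8 window held 1 TATAAA, 1 GATA motif and 1 E-box, while the Krt18 window held 1 TFAP2 motif and 1 E-box. The Cldn3 window held 1 TFAP2 motif, 1 GC box and 1 E-box, with the TFAP2 motif and the E-box sharing 1 base. The Cldn4 window held 2 GC boxes and 2 E-boxes, and the Cldn6 window 2 GC boxes, 2 E-boxes and 1 TEAD motif. Of 32851 mouse promoter windows of this length, 8.32% held TATAAA, 16.6% the TFAP2 motif, 14.7% the TEAD motif, 11.2% the GATA motif, 35.7% a GC box and 20.2% this E-box. A match describes letters, not binding. The tables used here held no Krt19 window.

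Trophoblast was the keratin-rich lineage at every stage, and all 8 genes at E3.5 and 7 of the 8 at each of the next 4 stages were at least 2-fold higher there than in epiblast. Values are CPM, the UMIs of a gene per 1000000 UMIs summed over the cells of a class in a library, with exact 95% Poisson intervals in brackets that cover counting error only. A gene was called higher or lower when the CPM of the 2 classes differed at least 2-fold and 1 of them had 10 CPM or more. At E4.5, 7 of 8 members were called higher in trophoblast than in epiblast and 0 lower, against 16.1% higher and 21.5% lower of 9571 genes tested. Over the 6 stages, 42 of 48 gene-by-stage comparisons were called higher and 4 lower, and all 4 lower ones were Cldn6. Without the E5.5 library the counts were 36 higher and 3 lower of 40. At E3.5, 8 were higher, beside 14.4% higher and 22.5% lower of all genes. The E3.5 call of Krt19 rests on few UMIs, so no ratio is given for it. At E4.75, E5.0 and E5.25, 7 were higher and 1 lower each time, beside 15.8%, 13.0% and 12.7% higher and 20.3%, 16.6% and 15.9% lower. At E5.5, 6 were higher and 1 lower, beside 11.9% and 14.9%.

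Krt8 stood at 1861 [1769-1956], 1092, 658, 352, 302 and 539 [528-551] CPM in trophoblast from E3.5 to E5.5, against 49.2, 3.77, 8.95, 8.65, 7.79 and 28.2 CPM in epiblast. Krt18 stood at 1991, 948, 801, 486, 394 and 353 CPM in trophoblast, against 8.83, 17.4, 32.0, 34.4, 32.9 and 55.9 CPM in epiblast. The intervals of trophoblast and epiblast did not overlap at any stage for either gene. The ratio of trophoblast to epiblast was 225.5 for Krt18 at E3.5 and 6.31 at E5.5. With every cell thinned to 3000 UMIs, both keratins were found in 100% of the 42 trophoblast cells of E3.5, and in 57.9% (Krt8) and 59.5% (Krt18) of those of E5.5, where 142 shallower cells were left out. Unthinned, 74.3% and 78.2% of the E5.5 trophoblast cells had them. The thinned share of epiblast cells with a Krt8 UMI was 13.6% at E3.5 and 0.334% to 8.90% later, with 128 cells left out at E5.5, and the unthinned share was 45.5% at E3.5 and 3.34% to 21.7% later.

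Krt7, the second type II chain, and Krt19, the second type I chain, followed a later course. Krt7 had 47.0, 199, 159, 64.3, 45.7 and 47.7 CPM in trophoblast and at most 2.88 CPM in epiblast. Krt19 had 12.1, 202, 139, 94.1, 113 and 144 CPM in trophoblast and at most 5.22 CPM in epiblast. Both were therefore low in the E3.5 trophoblast, where Krt8 and Krt18 had their highest trophoblast levels. In trophoblast without giant cells Krt7 and Krt19 were highest at E4.5. Giant cells had more at E5.25, with 208 CPM of Krt7 and 511 CPM of Krt19. E4.5 over E3.5 (both flushed and filtered), Krt19 was 16.8-fold higher (647 against 10 UMIs) and Krt7 4.24-fold higher, while Krt18, Cldn6 and Cldn7 were at 0.476, 0.287 and 0.409 of their E3.5 level. With coarser clusters (resolution 0.5) these 3 were at 0.925, 0.523 and 0.720 and none was called lower. With the main clusters 2 of 8 members were higher and 3 lower, beside 14.6% higher and 14.9% lower of 8821 genes. In epiblast 1 of 5 was higher and 2 lower, beside 16.4% and 18.2% of 9686 genes, with Krt8 at 0.0766 and Cldn7 at 0.441 of the E3.5 level. The epiblast cells of E4.5 are mainly cluster 3 and those of E3.5 cluster 1, so stage and kind of cell cannot be told apart here.

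**Figure D1:**
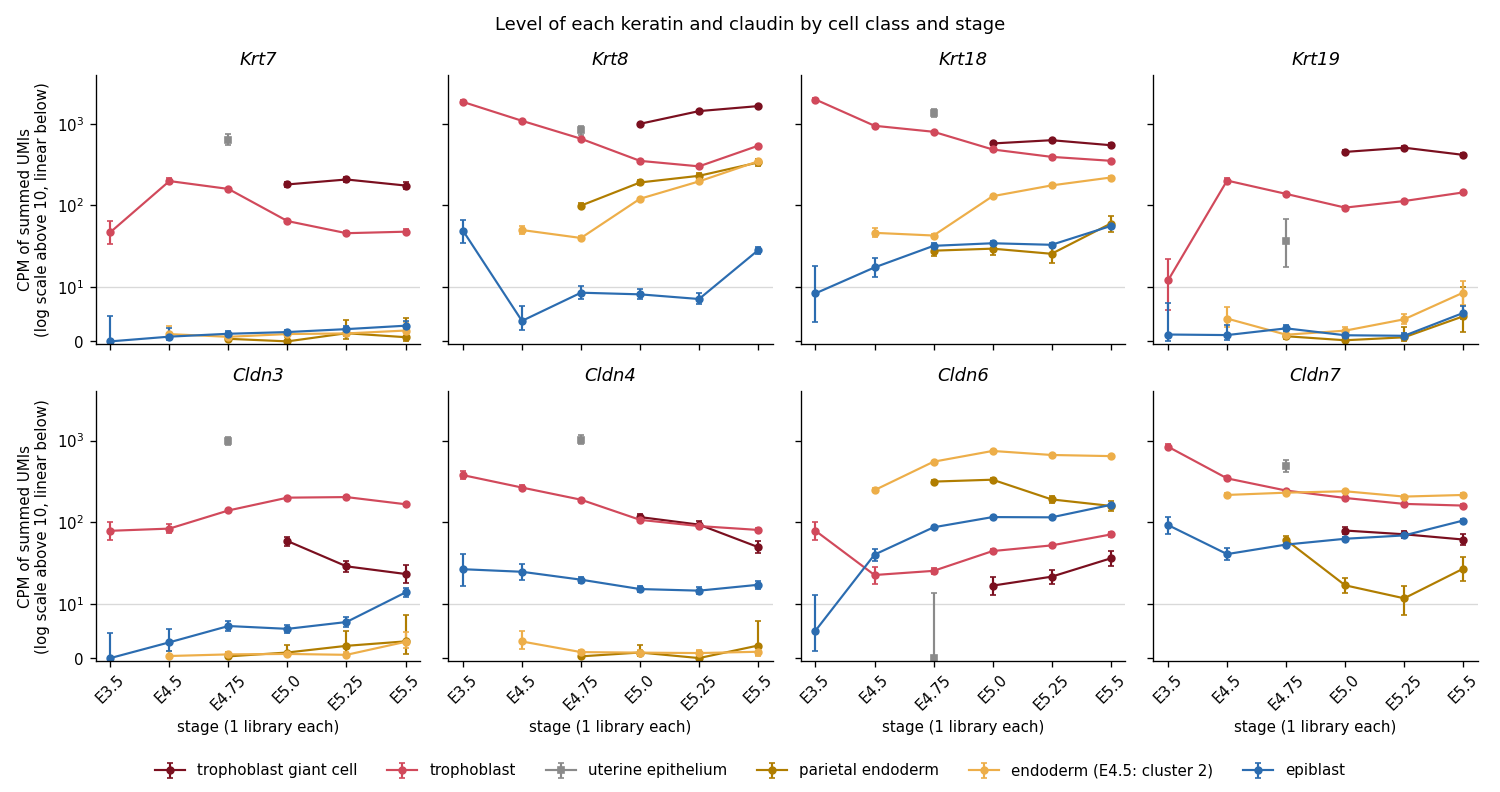
Each panel shows 1 gene by stage (x axis, 1 library each) as CPM of summed UMIs per cell class (y axis, logarithmic above 10 and linear below), with exact 95% Poisson intervals as bars. The trophoblast line of Krt8 and Krt18 descends to E5.25 while the endoderm line climbs from E4.75, Krt7 and Krt19 stay under 10 CPM in epiblast and endoderm, and Cldn6 is highest in endoderm. The E4.5 point of the endoderm line is cluster 2.

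Among the claudins, Cldn3 and Cldn4 were at least 4.71-fold higher in trophoblast than in epiblast at each stage. Cldn3 had 78.3, 83.3, 139, 200, 203 and 166 CPM in trophoblast and 0 to 13.8 CPM in epiblast. Cldn4 had 377, 266, 188, 107, 89.6 and 80.3 CPM in trophoblast and 14.5 to 26.5 CPM in epiblast. Up to E5.25 the neighbours thus ran in opposite directions in trophoblast without giant cells, Cldn4 lower at each stage than at the one before and Cldn3 highest at E5.0 and E5.25. Within ectoplacental cone and within giant cells, described below, both were lower at E5.25 than at E5.0. Cldn7, which also had a level in every embryonic lineage, had 841, 344, 244, 198, 167 and 160 CPM in trophoblast, against 92.1, 40.6, 53.1, 62.5, 68.8 and 105 CPM in epiblast. Its ratio of trophoblast to epiblast was 9.14 at E3.5 and 1.53 at E5.5, under the 2-fold limit.

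Cldn6, known from embryonic epithelia and pluripotent cells, was the exception. It had 78.3, 22.5, 25.3, 44.2, 51.9 and 70.6 CPM in trophoblast, against 5.05, 40.0, 86.5, 115, 115 and 163 CPM in epiblast. The order therefore turned between E3.5, where trophoblast was 15.5-fold higher on 65 against 4 UMIs, and E4.5, where it was at 0.562 of the epiblast level. From E4.75 to E5.5 trophoblast stood at 0.292 to 0.453 of epiblast.

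Endoderm held a different set: Krt8 and Krt18 at levels that were higher at each stage from E4.75, Cldn6 at the highest levels of any class, and Cldn7, but next to none of the other 4 genes. At E4.5, 4 of the 5 members that reached 10 CPM were called higher in cluster 2 than in epiblast and 1 lower, against 20.8% higher and 15.4% lower of 9758 genes. At E4.75 it was 3 higher and 1 lower (27.9% and 15.7% of all genes), at E5.0 and E5.25 4 and 1 (29.6% and 14.0%, then 30.6% and 13.3%), and at E5.5 4 and 2 of 6 (28.5% and 13.4%). Over E4.75 to E5.5 the counts were 15 higher and 5 lower of 21 comparisons with 10 CPM or more. With cluster 2 they were 19 higher and 6 lower of 26, or 15 and 4 of 20 without E5.5. Cldn6 had 247 [233-260] CPM in cluster 2 at E4.5 and 551, 747, 666 and 645 [625-666] CPM in endoderm from E4.75, which was 3.97-fold to 6.47-fold above epiblast. Trophoblast stood at 0.0459 to 0.109 of those levels of Cldn6 at the same stages. In thinned cells Cldn6 was found in 43.5% of these cells at E4.5 and in 78.1% to 88.4% of endoderm cells later, or in 79.1% and 91.5% to 99.6% unthinned. Cldn7 had 216 CPM in cluster 2 and 230, 239, 206 and 216 CPM in endoderm.

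Krt8 had 50.0 [44.1-56.4] CPM in cluster 2 at E4.5 and 39.9, 121, 197 and 347 [333-363] CPM in endoderm from E4.75, and Krt18 had 46.2 CPM in cluster 2 and 42.8, 130, 176 and 220 CPM in endoderm. From E4.75 on, the intervals of the 4 stages did not overlap for either gene. Trophoblast stood 21.8-fold above cluster 2 for Krt8 at E4.5, and 1.53-fold above endoderm at E5.25 and 1.55-fold at E5.5. That E5.5 value turned to 0.540 with a minimum of 1000 genes per cell and to 0.565 with coarser clusters (resolution 0.5). At E4.5, 6 of 8 members were called higher in trophoblast than in cluster 2 and 1 lower, beside 10.3% higher and 20.1% lower of 9356 genes, and over endoderm at E5.5, 4 were higher and 1 lower, beside 9.44% and 26.1% of 8990. Between them, 6, 6 and 5 were higher and 1 lower each time at E4.75, E5.0 and E5.25, beside 10.3%, 9.89% and 9.88% higher and 26.0%, 28.2% and 29.2% lower. Over E4.75 to E5.5, 21 of 32 comparisons were higher and 4 lower. With cluster 2 they were 27 of 40 and 5, or 23 of 32 and 4 without E5.5. Krt7, Krt19, Cldn3 and Cldn4 had at most 8.97 CPM in endoderm or cluster 2 at any stage, where their trophoblast levels were 45.7 CPM or more. Endoderm Krt8 and Krt18 at E5.5 were 64.4% and 62.3% of the trophoblast level, while the median trophoblast marker in endoderm was at 4.00% of its trophoblast level and Krt7 at 4.18%. At E4.75 those medians and Krt8 were 0.736% and 6.07%.

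Visceral endoderm clusters were named embryonic (over the epiblast) or extraembryonic (over the extraembryonic ectoderm) from the difference of 2 marker scores. The position of the cells was not tested. Extraembryonic scores were 0.619 in cluster 22, named embryonic, and 0.0281 and 0.693 in clusters 23 and 24, named extraembryonic. Embryonic scores were 1.56, -0.545 and -0.709. The parts so named were within 2-fold of each other for all members with 10 CPM or more except Krt19 at E5.5. Krt8 had 106, 168 and 305 CPM in extraembryonic visceral endoderm from E5.0 to E5.5, against 133, 233 and 422 CPM in embryonic visceral endoderm. Cldn6 had 762, 686 and 651 CPM in the extraembryonic part, against 734, 642 and 635 CPM in the embryonic part. Of the 4 members with 10 CPM or more at each of E5.0 and E5.25, 0 were called, beside 1.59% higher and 3.05% lower of 8632 genes at E5.0 and 3.6% and 4.67% of 8887 genes at E5.25. These calls do not set the members apart from other genes. At E5.5 Krt19 alone was called lower, beside 4.87% higher and 5.57% lower of 8918 genes, with 4.67 CPM in extraembryonic and 16.6 CPM in embryonic visceral endoderm.

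Parietal endoderm, the migratory endoderm that lines the yolk cavity and lays down Reichert's membrane, held Krt8 near or above the level of the rest of the endoderm, with less of its partner Krt18. Krt8 had 99.6 [92.0-108], 191, 231 and 336 [306-369] CPM in parietal endoderm from E4.75 to E5.5, against 39.9, 121, 197 and 347 CPM in the rest of the endoderm. Krt18 had 27.9, 29.5, 25.5 and 59.9 [47.4-74.8] CPM in parietal endoderm, against 42.8, 130, 176 and 220 CPM. Krt8 was thus above the endoderm level at the first 3 of these stages and at 0.968 of it at E5.5, while Krt18 was at 0.652, 0.227, 0.145 and 0.272 of it. Krt8 made up 78.1%, 86.6%, 90.0% and 84.9% of the summed Krt8 and Krt18 UMIs in parietal endoderm, and 48.3%, 48.2%, 52.8% and 61.2% in the rest of the endoderm. Exact binomial intervals of the 2 classes did not overlap at any of the 4 stages (at E5.5, 81.5% to 87.9% against 59.6% to 62.9%). Such a share depends on how well each 3′ end is captured, so it is read here only between classes.

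The other type I keratins looked at in parietal endoderm were each under 10 CPM. Krt10, a type I chain of stratified epithelia, had 5.67 to 9.02 CPM there, Krt23 had at most 2.30 CPM and Krt19 at most 4.61 CPM. Krt7 and Krt8, the type II members, made up 77.6% to 89.8% of the summed UMIs of the 4 keratins in the class. In cells thinned to 3000 UMIs, 23.4%, 35.5%, 45.2% and 50.7% of parietal endoderm cells had Krt8 without Krt18, and 1.91% to 11.1% had both. In the rest of the endoderm 7.43%, 20.7%, 26.2% and 31.2% had Krt8 without Krt18, and 1.53% to 30.2% had both. At E5.5, 59 parietal and 266 other endoderm cells were too shallow and left out. The product of the 2 single shares was 9.88% in parietal endoderm at E5.5, where 11.1% of cells had both.

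**Figure D2:**
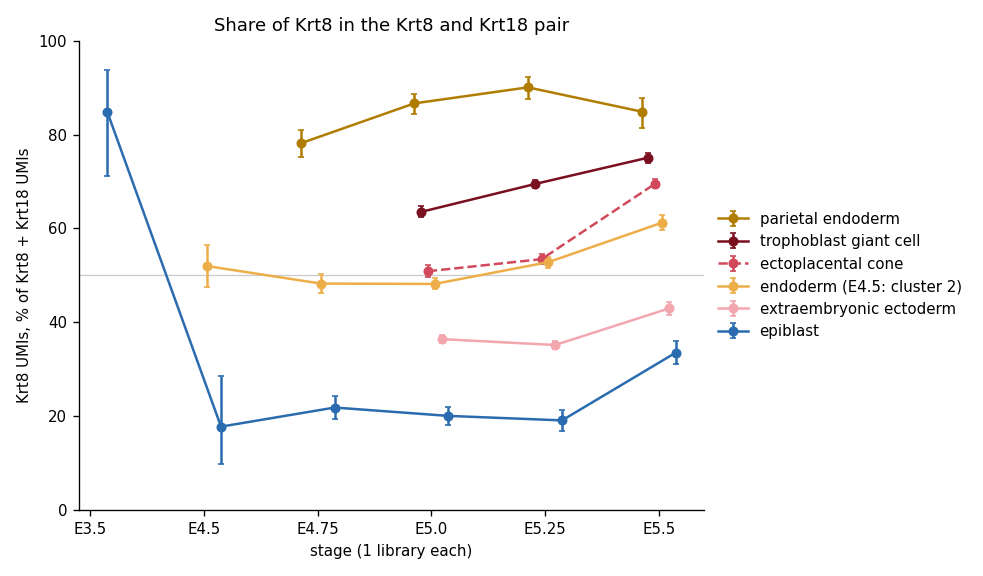
Share of Krt8 among the summed UMIs of Krt8 and Krt18 (y axis, %) by stage (x axis, 1 library each) and cell class, with exact 95% binomial intervals as bars and a line at an equal split. Parietal endoderm lies between 78.1% and 90.0%, giant cells between 63.5% and 75.1%, extraembryonic ectoderm between 35.2% and 43.0%, and epiblast between 17.8% and 33.5% from E4.5. The E3.5 epiblast point is 84.8% (71.1% to 93.7%), within the parietal range, on 39 Krt8 and 7 Krt18 UMIs.

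The claudins were also lower in parietal endoderm. Cldn7 had 60.5, 16.8, 11.6 and 26.9 CPM, which was 0.263, 0.0703, 0.0566 and 0.125 of the rest of the endoderm. Cldn6 had 314, 332, 190 and 158 CPM, or 0.570, 0.444, 0.285 and 0.245 of it. At E4.75, 1 of 4 members was called higher and 1 lower, beside 4.56% higher and 7.7% lower of 8843 genes. At E5.0, 3 of the 4 members with 10 CPM or more were called lower and 0 higher, beside 11.4% lower and 8.56% higher of 8885 genes, and over the 4 stages the counts were 10 lower and 1 higher of 16, or 7 lower and 1 higher of 12 without E5.5. At E5.25 and E5.5 it was 3 lower and 0 higher each time, beside 12.8% and 11.8% lower and 9.56% and 8.9% higher. Of the junction genes at E5.5, lower calls outnumbered higher ones in each list: of 9 measured genes of adherens junctions and claudin partners 5 were called lower and 0 higher, of 14 tight junction genes 6 lower and 1 higher, and of 8 desmosome and keratin linker genes 3 lower and 1 higher, beside 11.8% lower and 8.90% higher of 8978 genes. Cdh1 (E-cadherin) had 72.2 CPM in parietal endoderm and 333 CPM in the rest of the endoderm, and Crb3, an apical polarity protein, had 13.8 CPM in parietal endoderm and 82.7 CPM in the rest. The transcription factor Klf5 went the other way, with 564 CPM in parietal endoderm and 138 CPM in the rest. The median log2 ratios were -0.89, -0.83 and -0.68 for the 3 junction lists and -0.05 for all genes.

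Within the trophoblast lineage the 8 genes differed between its kinds, which were named from marker scores. The position of the cells was not tested. Cluster 7, which leads extraembryonic ectoderm at E5.0 and E5.25, scored 0.468 for extraembryonic ectoderm and -0.353 for ectoplacental cone. Its 10 leading genes included the extraembryonic ectoderm marker Elf5 and the ectoplacental cone markers Phlda2 and Hand1. Krt7, Krt8 and Krt19 had their lowest levels in extraembryonic ectoderm, next to the epiblast, and higher ones in ectoplacental cone and in giant cells, the polyploid invasive cells at the border to the uterus, and Cldn3 ran the other way. The 4 keratins and Cldn3 are given for E5.0, E5.25 and E5.5 in turn. Krt8 had 1002, 1435 and 1653 CPM in giant cells, 663, 668 and 1265 CPM in ectoplacental cone, and 248, 182 and 194 CPM in extraembryonic ectoderm. Krt19 had 453, 511 and 417 CPM in giant cells, 221, 245 and 320 CPM in ectoplacental cone, and 52.0, 71.3 and 60.7 CPM in extraembryonic ectoderm. Krt7 had 181, 208 and 175 CPM in giant cells, 147, 124 and 130 CPM in ectoplacental cone, and 36.3, 20.7 and 8.39 CPM in extraembryonic ectoderm. For these 3 keratins the intervals of the 3 kinds of trophoblast did not overlap at any stage, but giant cells were called higher than ectoplacental cone only for Krt19 at E5.0 and for Krt8 and Krt19 at E5.25. With the mixed clusters kept in their best class, giant cells at E5.5 were at 0.827 (Krt7), 0.844 (Krt8) and 0.782 (Krt19) of the ectoplacental cone level, so the order of these kinds turned. For giant cells over ectoplacental cone, 1, 2 and 0 of 8 members were called higher and 2 lower each time at E5.0, E5.25 and E5.5, beside 4.45%, 5.79% and 5.29% higher and 2.97%, 2.76% and 1.8% lower of all genes. The lower ones were Cldn3 and Cldn7 at each stage.

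Krt18 was the flattest keratin, with 576, 631 and 548 CPM in giant cells, 640, 581 and 554 CPM in ectoplacental cone, and 433, 334 and 257 CPM in extraembryonic ectoderm. Giant cells and ectoplacental cone did not differ beyond counting error for Krt18 at E5.5. Cldn3 had 58.7, 28.7 and 23.1 CPM in giant cells, 129, 96.1 and 60.0 CPM in ectoplacental cone, and 224, 237 and 216 CPM in extraembryonic ectoderm. Cldn3 at E5.5 was thus 0.278 of the extraembryonic ectoderm level in ectoplacental cone, where Krt7 was 15.5-fold and Krt8 6.53-fold higher. Cldn7 was lower in giant cells, with 78.9, 71.0 and 61.2 CPM there, against 188, 148 and 155 CPM in ectoplacental cone and 202, 174 and 162 CPM in extraembryonic ectoderm. Its ratio of giant cells to ectoplacental cone was past 2-fold under 8 of 10, 8 of 9 and 8 of 9 alternative settings. The ratio reached 0.812, 0.504 and 0.687 under the others. Cldn4 had 115, 93.3 and 49.5 CPM in giant cells, 152, 118 and 76.7 CPM in ectoplacental cone, and 87.7, 80.2 and 82.0 CPM in extraembryonic ectoderm. Cldn6 had 16.7, 21.4 and 36.0 CPM in giant cells, against 48.3, 59.5 and 88.5 CPM in extraembryonic ectoderm.

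In ectoplacental cone over extraembryonic ectoderm at E5.5, 4 of 8 members were called higher and 2 lower, beside 6.44% higher and 7.44% lower of 8054 genes. At E5.0 it was 3 higher and 0 lower, beside 4.64% and 3.87%, and at E5.25 3 and 2, beside 4.55% and 4.74%. For giant cells over the other trophoblast cells, 3 of 8 were called higher and 2 lower at E5.5, beside 8.98% higher and 6.74% lower of 8155 genes. At E5.0 and E5.25 it was 3 higher and 3 lower each time, beside 8.79% and 9.71% higher and 7.02% and 7.27% lower. Over the 3 stages, 10 were higher and 4 lower of 24 for ectoplacental cone over extraembryonic ectoderm and 9 and 8 of 24 for giant cells, and without E5.5 it was 6 and 2 of 16 and 6 and 6 of 16. With the mixed clusters kept in their best class, the E5.5 ratio of giant cells to other trophoblast was 1.98 for Krt8 and 1.73 for Krt19, against 3.06 and 2.89 without them, and with a minimum of 1000 genes per cell it was 8.03 for Krt8, 6.80 for Krt19 and 16.5 for Krt7, against 3.68 for Krt7 with the minimum of 1500. With the mixed clusters kept, the E5.0 ratio of Cldn6 was 1.32, against 0.377. Of the desmosomal and keratin linker genes, 7 of 10 measured were called higher and 0 lower in giant cells over other trophoblast at E5.5, and 6 of 9 were called higher and 1 lower in ectoplacental cone over extraembryonic ectoderm. Their median log2 ratio was 1.04 in giant cells, beside 0.03 for all genes, and 0.85 in ectoplacental cone, beside 0.00. Dst, a linker of keratin to the cell base, had 380 CPM in giant cells and 107 CPM in other trophoblast, and Dsp (desmoplakin) had 172 CPM in giant cells and 67.8 CPM in other trophoblast. Of 10 adherens junction genes and claudin partners, 0 were higher and 3 lower in giant cells. Cdh1 had 147 CPM in giant cells and 449 CPM in other trophoblast, and Epcam had 182 CPM in giant cells and 457 CPM in other trophoblast. Of 12 tight junction genes 1 was higher and 5 lower, the higher one being the junctional adhesion molecule Jam3 with 231 CPM in giant cells and 19.6 CPM in other trophoblast. The median log2 ratio in giant cells was -0.02 for the adherens junction list and -0.04 for the tight junction list.

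**Figure D3:**
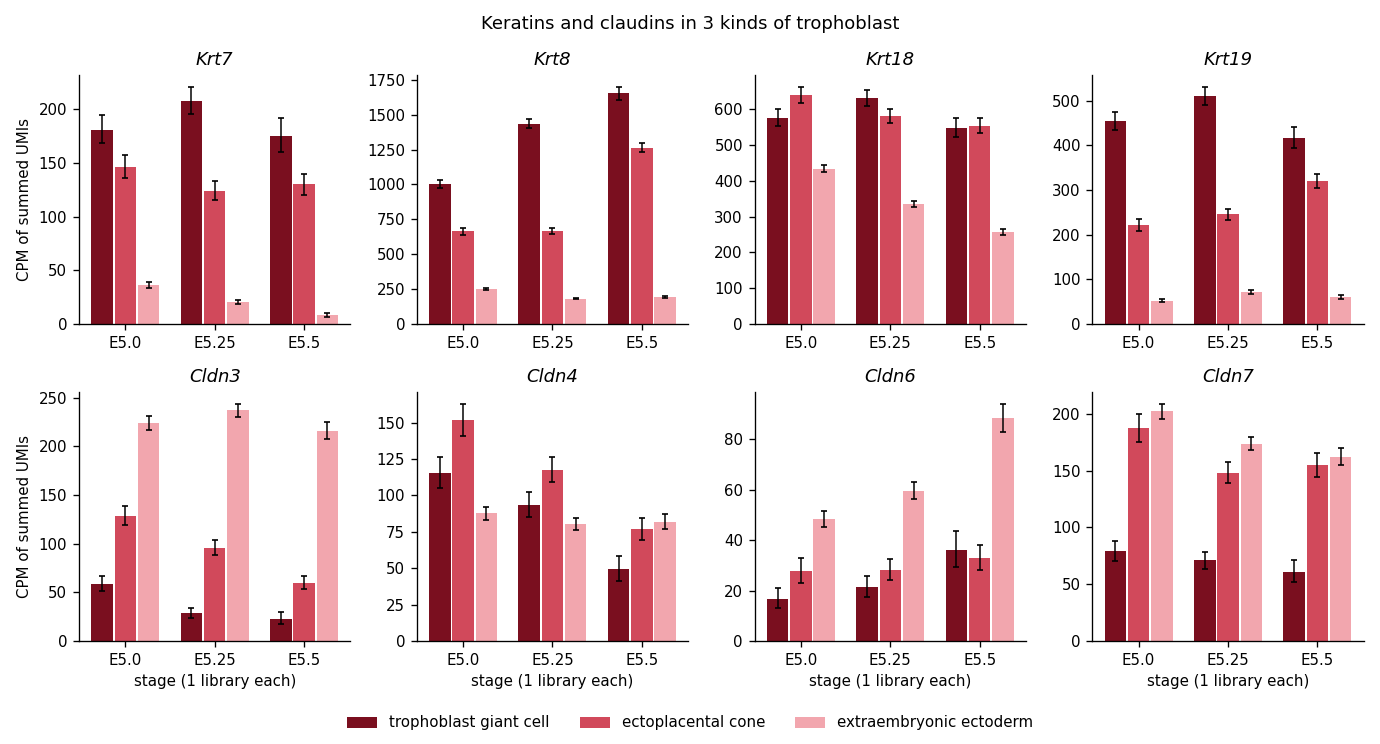
CPM of summed UMIs (y axes, linear from 0, a scale for each gene) in giant cells, ectoplacental cone and extraembryonic ectoderm at E5.0, E5.25 and E5.5 (x axis, 1 library each), with exact 95% Poisson intervals as bars. Krt7, Krt8 and Krt19 step down and Cldn3 steps up across the 3 kinds at each stage, although the first step of these keratins at E5.5 turns with the mixed clusters kept.

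Other keratins stayed low in the embryo. Of 49 other keratin genes, Krt10 led in most classes, with at most 28.0 CPM. Giant cells added Krt14, the type I chain of basal epithelium, with 3.62, 16.0 and 32.4 CPM from E5.0 to E5.5. Of 21 other claudin genes 2 reached 10 CPM in endoderm or epiblast at E5.5, Cldn2, known from leaky epithelia, with 41.7 CPM in endoderm and 0.541 CPM in epiblast, and Cldn12 with 24.9 and 7.21 CPM. Cldn2 had 4.61 CPM in parietal endoderm of that library.

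Cells with uterine epithelium markers in the E4.75 library were set beside the trophoblast of that library. These 35 cells had 639 [547-742] CPM of Krt7, 835 of Krt8, 1367 of Krt18 and 36.9 of Krt19, against 159, 658, 801 and 139 CPM in the trophoblast of the same library. They had 994 [878-1120] CPM of Cldn3, 1031 of Cldn4 and 488 of Cldn7, against 139, 188 and 244 CPM in trophoblast. Cldn6 had 0 UMIs in uterine epithelium, which allows up to 11.1 CPM, against 25.3 CPM in trophoblast. Of 8 members 3 were called higher and 2 lower, beside 27.3% and 39.5% of 9054 genes, so their calls do not set the members apart from other genes. The uterine cells also had Krt80 and Krt17, at 188 and 118 CPM, and 71.4% of them had both Cldn3 and Cldn4 in thinned counts.

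The 4 claudins were used in different proportions by each class. Cldn6 made up 53.0% of their summed UMIs in cluster 2 at E4.5 and 70.4%, 75.6%, 76.3% and 74.6% in endoderm from E4.75, and in parietal endoderm 83.7%, 94.6%, 93.2% and 83.1% from E4.75. In trophoblast Cldn7 made up 61.2% at E3.5 and 33.5% at E5.5, while Cldn3 made up 5.70% at E3.5, 39.7% at E5.25 and 34.8% at E5.5. Cldn4 was at 37.1% of trophoblast claudin UMIs at E4.5 and 16.9% at E5.5. In epiblast Cldn7 made up 74.5% at E3.5, on 98 UMIs, and Cldn6 54.6% at E5.5. In endoderm and cluster 2 Cldn3 made up at most 0.345% and Cldn4 at most 0.655% of the claudin UMIs, whereas uterine epithelium had 39.6% Cldn3 and 41.0% Cldn4.

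**Figure D4:**
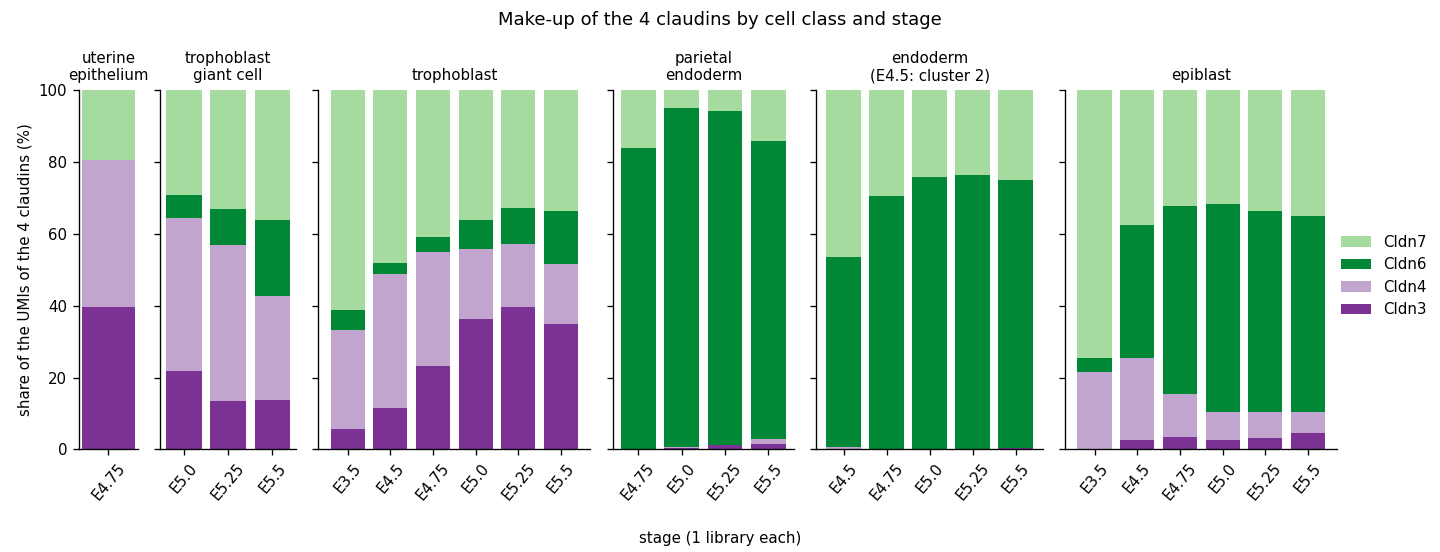
Stacked bars give the share of each claudin (y axis, % of the summed UMIs of the 4 genes) by stage (x axis, 1 library each) in 6 cell classes, with cluster 2 as the E4.5 bar of endoderm. The dark green Cldn6 part fills 83.1% or more of the parietal endoderm bars and is absent from the uterine epithelium bar, and the Cldn3 part of trophoblast is 5.70% at E3.5 and 39.7% at E5.25.

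Between stages, Krt8 and Krt18 were lower in trophoblast without giant cells and higher in endoderm at the later stage. The giant cells left out, 209 at E5.25 and 337 at E5.5, had 1653 CPM of Krt8 at E5.5. Ratios with them included were not computed. E5.5 (dissected) was set against E4.5 (flushed), both filtered, and E5.25 against E4.75, both dissected and unfiltered, and the second pair leaves out the E5.5 library. In trophoblast 5 of 8 members were called lower and 1 higher at E5.5 than at E4.5, beside 14.6% lower and 11.7% higher of 8664 genes, and 4 were lower and 1 higher at E5.25 than at E4.75, beside 7.16% and 3.36% of 7973 genes. Krt7 was at 0.239 and 0.287, Krt18 at 0.372 and 0.492, Cldn4 at 0.302 and 0.475, and Krt8 at 0.494 and 0.459 of the earlier level in the 2 comparisons. Cldn6 was 3.14-fold and 2.05-fold higher. The Krt8 value for E5.5 over E4.5 sits at the limit and was past 2-fold under 5 of 10 alternative settings. At resolution 0.5 Krt7 was at 0.0430 and Krt8 at 0.178 of the E4.5 level. With median-of-ratios scaling 3 members were lower at E5.5 than at E4.5, and 1 was lower at E5.25 than at E4.75. The trophoblast of E4.5 is mainly cluster 0, that of E4.75 mainly cluster 8 and that of later stages mainly clusters 6, 7 and 9, so stage and kind of trophoblast cannot be told apart in these ratios. Within the kinds of trophoblast, E5.5 over E5.0, Krt8 was at 0.780 of the E5.0 level in extraembryonic ectoderm, 1.91 in ectoplacental cone and 1.65 in giant cells. Krt7 was at 0.231, 0.887 and 0.969, Krt18 at 0.593, 0.866 and 0.952, and Cldn6 at 1.83, 1.19 and 2.16 in the same 3 kinds. Of these, Krt7 in extraembryonic ectoderm (lower) and Cldn6 in giant cells (higher) passed 2-fold. The Krt7 value was past 2-fold under 9 of 9 alternative settings. The Cldn6 value was past it under only 2 of 11, with a range of 1.16 to 2.82.

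In endoderm at E5.5, set against cluster 2 at E4.5, 3 of the 4 measured members were called higher and 0 lower, beside 16.6% higher and 12.2% lower of 9401 genes, and 2 were higher and 0 lower at E5.25 than at E4.75, beside 3.91% and 2.68% of 8892 genes. Krt8 was 6.95-fold and 4.94-fold higher, and Krt18 4.77-fold and 4.12-fold. In epiblast 5 of 6 measured members were called higher and 0 lower at E5.5 than at E4.5, beside 13.0% higher and 18.0% lower of 9283 genes, but 0 of 4 were called at E5.25 over E4.75, beside 2.31% higher and 7.52% lower of 8492 genes. The epiblast level of Krt8 was 28.2 CPM at E5.5, against 7.79 CPM in the library before it. At E5.5 the median trophoblast marker in epiblast was at 2.04% of its trophoblast level, against 0.765% to 1.58% at E4.75 to E5.25, and Krt8 was at 5.23% and Krt18 at 15.8% of theirs. The E5.5 barcodes with under 1500 genes, 18592 in number, held Krt8 at 364 CPM and Krt18 at 203 CPM. Their part in the epiblast values was not tested. Cldn6 in epiblast was 7.93-fold higher at E4.5 than at E3.5 (138 against 4 UMIs) and 4.07-fold higher at E5.5 than at E4.5. The epiblast is cluster 1 at E3.5, mainly cluster 3 at E4.5 and mainly cluster 21 at E5.5.

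**Figure D5:**
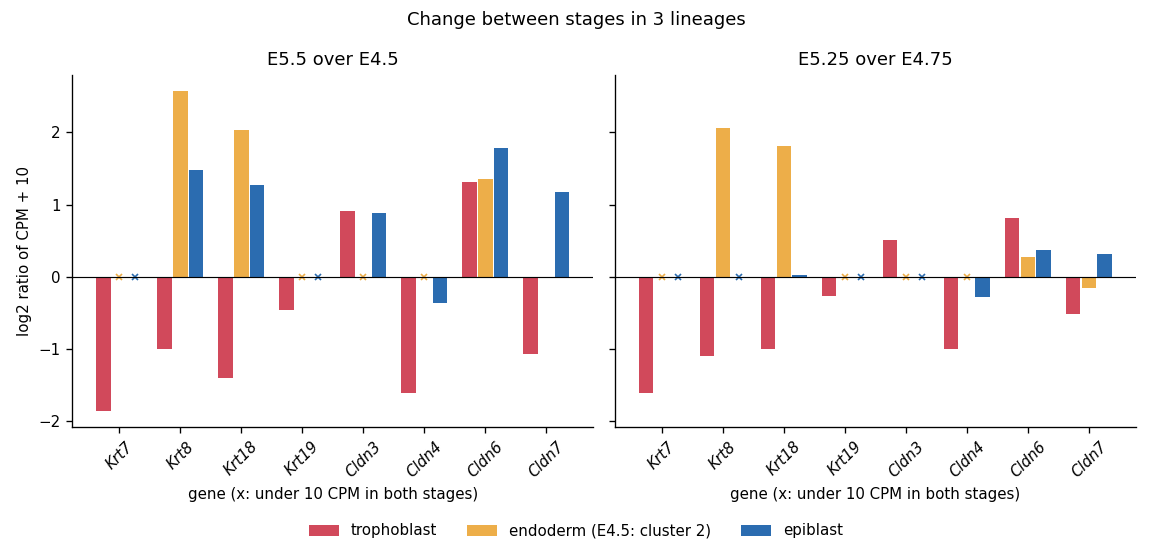
Log2 ratios of CPM plus 10 (y axis) for each gene (x axis) in trophoblast, endoderm and epiblast, for E5.5 over E4.5 (left) and E5.25 over E4.75 (right), with cluster 2 as the E4.5 side of endoderm. A cross marks a gene under 10 CPM in both stages. Krt8 and Krt18 point down in trophoblast and up in endoderm in both comparisons, while the epiblast bars of the E5.25 over E4.75 comparison stay within 2-fold.

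The genes of the junction lists did not follow the keratins in every lineage. In trophoblast, E5.5 over E4.5, 5 of 10 measured desmosome and keratin linker genes were called lower and 0 higher, beside 14.6% lower and 11.7% higher of all genes, among them Pkp1 (plakophilin 1) with 0.658 CPM at E5.5 and 60.9 CPM at E4.5, and Dsp with 67.8 CPM at E5.5 and 177 CPM at E4.5. Of 15 tight junction genes 3 were lower and 0 higher, and of 10 adherens junction genes and claudin partners 1 was higher, Ctnnb1 (β-catenin) with 237 CPM at E5.5 and 94.9 CPM at E4.5. The median log2 ratios were -0.51 for the desmosome list, -0.31 for tight junctions and -0.05 for adherens junctions, beside 0.07 for all genes. In endoderm at E5.5 over cluster 2 at E4.5, where 16.6% of all genes were higher and 12.2% lower, 5 of 15 tight junction genes were higher and 1 lower, 4 of 9 adherens junction genes and claudin partners were higher and 0 lower, and 2 of 10 desmosome and linker genes were higher and 3 lower. Mpp5 and Crb3, 2 parts of the apical Crumbs complex, had 205 and 82.7 CPM in endoderm at E5.5 and 59.1 and 21.0 CPM in cluster 2, and Cdh1 had 333 CPM in endoderm at E5.5 and 136 CPM in cluster 2. The median log2 ratios in endoderm were 0.56 for tight junctions, 0.74 for adherens junctions and -0.16 for the desmosome list, beside 0.17 for all genes.
In trophoblast over epiblast at E4.5, 5 of 16 tight junction genes, 5 of 10 desmosome and linker genes and 5 of 10 adherens junction genes and claudin partners were higher, and 1, 1 and 0 lower, beside 16.1% higher and 21.5% lower of all genes. Dsp had 177 CPM in trophoblast and 4.06 CPM in epiblast. The median log2 ratios were 0.44, 0.85 and 0.73 for these 3 lists and 2.15 for the epithelial transcription factors, beside -0.06 for all genes. Of 8 other intermediate filament genes 4 were measured, with Lmna (lamin A) higher at 93.3 CPM in trophoblast and 20.6 CPM in epiblast and 2 others lower, and of 11 epithelial transcription factors 9 were higher and 1 lower, but Cdx2, Gata2, Gata3 and Tfap2c of that list had also named the trophoblast.

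Over the 25 sums of a class in a library with at least 30 cells, each member was set beside genes whose levels followed it most closely. These correlations of log2 CPM plus 10 describe points that share libraries, and have no test. Krt19 ran most closely with Afap1l2 (r = 0.98), Cbfa2t3 and Procr, and Krt7 with Tpm1 (r = 0.98), Errfi1 and S100a6. Krt8 was closest to Ptp4a2 (r = 0.93), Sidt2 and Sdc4, and Krt18 to Errfi1 (r = 0.93) and Sh3bgrl2. Cldn3 was closest to Wnt7b (r = 0.93), itself a marker used to name trophoblast, Perp and Errfi1, and Cldn4 to Lgals3 (r = 0.94) and Tbc1d2. Cldn7 was closest to Tjp3 (r = 0.84), a scaffold of tight junctions, to St14 and to Zbtb7b, and Cldn6 to Firre (r = 0.95), a long noncoding RNA, Peg3 and Mdh1. Among the members themselves r was 0.90 for Cldn3 and Cldn4, 0.88 for Krt7 and Cldn4, 0.87 for Krt7 with Krt18 and with Krt19, and 0.85 for Krt8 and Krt18. For Cldn6 r was negative with each of the other 7 members, from -0.11 with Cldn7 to -0.82 with Cldn4.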

How the data were processed

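The authors deposited, for each of the 6 libraries, a matrix of raw UMI counts per gene and barcode, made with Cell Ranger 7.1.0 per the file headers. Builds listed in the submitters' processing notes are GRCm38, mm10 and hg38. The role of hg38, the annotation and the strand setting were not given in any source used here. Barcodes with at least 1500 genes and at most 15% of counts from 13 mitochondrial genes were kept, and the cells with the highest Scrublet scores were removed as doublets (0.8% per 1000 cells, at most 8%, 1036 cells in all). Cells were clustered with scanpy 1.11.5 (2000 variable genes without the 8 members, 30 components, 15 neighbours, Leiden resolution 1.0) into 25 clusters, each named from at least 3 markers. Cluster 2 (E4.5) had more parietal than endoderm markers among its 10 leading genes, so comparisons that use it name it by number, and counts without E4.5 were added after seeing the data. Clusters with 0.2 or more of another lineage's marker level were set aside as mixed, a limit set after the clusters were seen, which took 45, 120, 65 and 1661 cells of the last 4 stages in order.

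Counts were summed per class and library (at least 30 cells) and expressed per 1000000 (CPM). Intervals are exact 95% Poisson or binomial and cover counting error only, and a count of 0 was given the limit that 3 counts allow. List ratios are log2 of CPM plus 10. Because 3′ tags are counted, a difference between genes also depends on how well each 3′ end is captured. Shares and orders among genes are given with that limit, and calls were made only between classes or stages. Named companions of a member were the 3 genes with the highest Pearson r among genes reaching 50 CPM. One gene is not reported here. The members, lists and tests were chosen with earlier results of these data known. The scripts were tested on simulated data.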

Additional observations from a re-analysis of the deposited data

Results flagged for a closer look

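Some ratios between stages lay on opposite sides of 1, past 2-fold, in different lineages. With 1 library per stage the difference between lineages was not tested. The E4.5 side of the endoderm ratios is cluster 2, which has no cell type name. Epiblast cells are cluster 1 at E3.5 and mainly cluster 3 at E4.5. E5.5 over E4.5, Krt8 had ratios of 7.492 in epiblast, 6.953 in endoderm and 0.494 in trophoblast. In the same comparison Krt18 had ratios of 3.216 in epiblast, 4.765 in endoderm and 0.3722 in trophoblast, and Cldn7 2.58 in epiblast and 0.4639 in trophoblast. E5.25 over E4.75, Krt8 had ratios of 4.942 in endoderm and 0.4586 in trophoblast, and Krt18 4.117 in endoderm and 0.4924 in trophoblast. E4.5 over E3.5, Cldn6 had a ratio of 7.926 in epiblast, on 138 and 4 UMIs, and 0.2869 in trophoblast, on 72 and 65 UMIs.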

How the results depend on the processing

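Of 2982 member ratios recomputed under other settings, 2265 moved by less than their counting interval, 715 moved further and 2 that had been past 2-fold changed direction. Of the others, 75, all within 2-fold in the report, crossed 1, such as Krt8 in trophoblast over endoderm at E5.5. Both changes past 2-fold came from keeping the mixed clusters in their best class: Cldn3 in endoderm over epiblast at E5.5 was 1.471 (0.217 without them) and Cldn6 in giant cells over trophoblast at E5.0 was 1.318 (0.377). That setting, added after seeing the data, also gave 5 giant-cell comparisons lower (8 in the report), 0 parietal comparisons higher (1) and 6 members higher in endoderm at E5.5 over E4.5 (3). For trophoblast at E5.5 over E4.5, 2 members were higher (1) with a minimum of 2500 genes, at most 10% mitochondrial counts, no doublet removal, resolution 0.5 or 2.0, or median-of-ratios scaling, and 3 were lower (5) with 2500 genes, resolution 2.0 or that scaling. For trophoblast at E5.25 over E4.75, 0 were higher (1) with at most 10% mitochondrial counts or each library clustered alone, and 1 was lower (4) with median-of-ratios scaling, which also gave 2 epiblast members higher (1) at E4.5 over E3.5. Trophoblast over epiblast had 2 comparisons lower (4, compared over the same stages) with 1000 genes or resolution 0.5. Parietal over other endoderm had 0 higher (1) with 1000 genes or resolution 2.0. Ectoplacental cone over extraembryonic ectoderm had 2 lower (4) with 2500 genes. Resolution 0.5 gave 4 giant-cell comparisons lower (8) and 0 trophoblast members lower (3) at E4.5 over E3.5. With no minimum CPM, endoderm over epiblast had 10 lower (6), parietal over other endoderm 2 higher (1) and 16 lower (10), endoderm at E5.5 over E4.5 5 higher (3) and 1 lower (0), and epiblast at E5.25 over E4.75 1 lower (0). Median-of-ratios scaling sets to 0 a median log2 ratio of CPM that was -0.12 to -0.26 for trophoblast over epiblast, -0.22 to -0.49 for trophoblast over endoderm, and -0.14 in trophoblast and -0.18 in epiblast for E5.5 over E4.5, so these ratios came out higher by that size. The causes were not tested. No paired analysis was possible because no stage has a second library, and the stages that share 2 classes are different conditions. A count of 0 allows up to 3.78 CPM in the E3.5 epiblast, 3.62 CPM in the E3.5 trophoblast and 11.1 CPM in the uterine epithelium cells of E4.75.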
